A study of Mus musculus with 153 samples.

Results

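Camk2a neurons are the excitatory pyramidal and granule cells of the hippocampus, and the data described here compare the RNA on their ribosomes with the RNA of the whole tissue around them. The comparison uses 14 of the 153 samples of the series: every home cage library of the Camk2a line, as ribosome-bound RNA pulled down by TRAP (translating ribosome affinity purification, called purified below) and as total lysate. All came from the dorsal hippocampus of mice of genotype Camk2a.Cre/TRAPfl, kept in the home cage as the study's controls, and sequenced as polyA RNA. The purified group has 3 libraries in the set labelled 15 min and 4 in the set labelled 60 min, and the lysate group has 3 and 4 in the same sets. The arms that met a new box or a shock are not used here, and the labels used here do not say what the times mean for mice of the home cage, whose sets come in separate tables of counts. Every sample, lysates included, carries the label cell type Neuron. Age and sex are not given in the labels used here, nor is it said that a purified and a lysate library of equal number came from the same animal.

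In TRAP, Cre recombinase switches on a tagged ribosomal protein in 1 cell class, and an antibody to the tag then pulls out ribosomes with the mRNA they are holding. Camk2a, the alpha subunit of calcium/calmodulin-dependent protein kinase II, is made by excitatory neurons of the forebrain, so its promoter is used to reach CA1, CA2, CA3 and dentate granule neurons at once. The lysate holds RNA of these same neurons together with that of interneurons, glia, vessels and the nuclei of all cells. Cells that make the tagged protein outside this class would add their RNA to the purified fraction, and the labels used here give no count of them. In such bulk samples fewer cells of a type and less RNA per cell cannot be told apart.

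Total counts per library ran from 27783560 to 106721928, and levels are given as CPM, counts scaled to a common library size with TMM factors (trimmed mean of M-values, which sets the bulk of genes level between libraries). Fractions are compared as a log2 fold change, purified over lysate, with its standard error (SE) from edgeR's quasi-likelihood test, which kept the set as a covariate, and adjusted p-values are from that test after Benjamini-Hochberg correction over 15454 genes. The largest axis of variation, 37.0% of the variance over the 14 libraries, put all 7 purified libraries on one side and all 7 lysates on the other, and the next, 18.5%, put the 15 min set apart from the 60 min set in both fractions. Within a group, libraries correlated at 0.906 to 0.956 in log2 CPM across genes. Lysates numbered 2 stood apart in both sets by their choroid plexus RNA, described with that tissue below. Where a list is given below with 0 members higher or 0 lower by edgeR, 2 members in all over 20 such lists had an unadjusted p under 0.05 in that direction, and DESeq2 called 2.

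The markers that name the class were checked first, and 3 of the 4 were higher in purified RNA. Nrgn, or neurogranin, a calmodulin-binding protein of dendritic spines (chromosome 9, 37544492 to 37552904, GRCm38), had 3108, 2672 and 2806 CPM in the purified libraries of the 15 min set, against 862, 644 and 710 CPM in its lysates. In the 60 min set it had 7478, 7623, 7054 and 6327 CPM in purified libraries and 1711, 1085, 1358 and 1721 CPM in lysates. The lowest purified library stood above the highest lysate in each set, and the log2 fold change was 2.14 ± 0.13 (SE; n = 7 each; adjusted p = 1.70e-09). Camk2a itself had 642, 700 and 562 CPM in purified libraries at 15 min, against 389, 313 and 387 CPM in lysates, and 1857, 1310, 1599 and 1442 CPM in purified libraries at 60 min, against 748, 509, 625 and 805 CPM in lysates. Again no library of one fraction overlapped with the other in either set (1.04 ± 0.13; adjusted p = 5.73e-06). Slc17a7, the vesicular glutamate transporter that marks glutamatergic terminals, ran over both sets at 932 to 3017 CPM (median 2139) in purified RNA and at 438 to 1453 CPM (median 706) in lysates (1.18 ± 0.16; adjusted p = 1.20e-05). Neurod6, a transcription factor of pyramidal neurons, did not pass the test. Its levels were 583, 618 and 612 CPM in purified libraries at 15 min, against 649, 470 and 355 CPM in lysates, and 432, 454, 521 and 672 CPM in purified libraries at 60 min, against 410, 603, 339 and 301 CPM in lysates. The groups overlapped, with a log2 fold change of 0.32 ± 0.16 and an adjusted p of 0.128. The value was -0.10, not passing, when libraries were scaled by their totals, and 0.72, passing, with the GC and length offsets described below. It also passed without lysate replicate 2 of the 60 min set, and without the 2 lysates numbered 2 (0.44 ± 0.16; adjusted p = 0.0332).

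**Figure D1:**
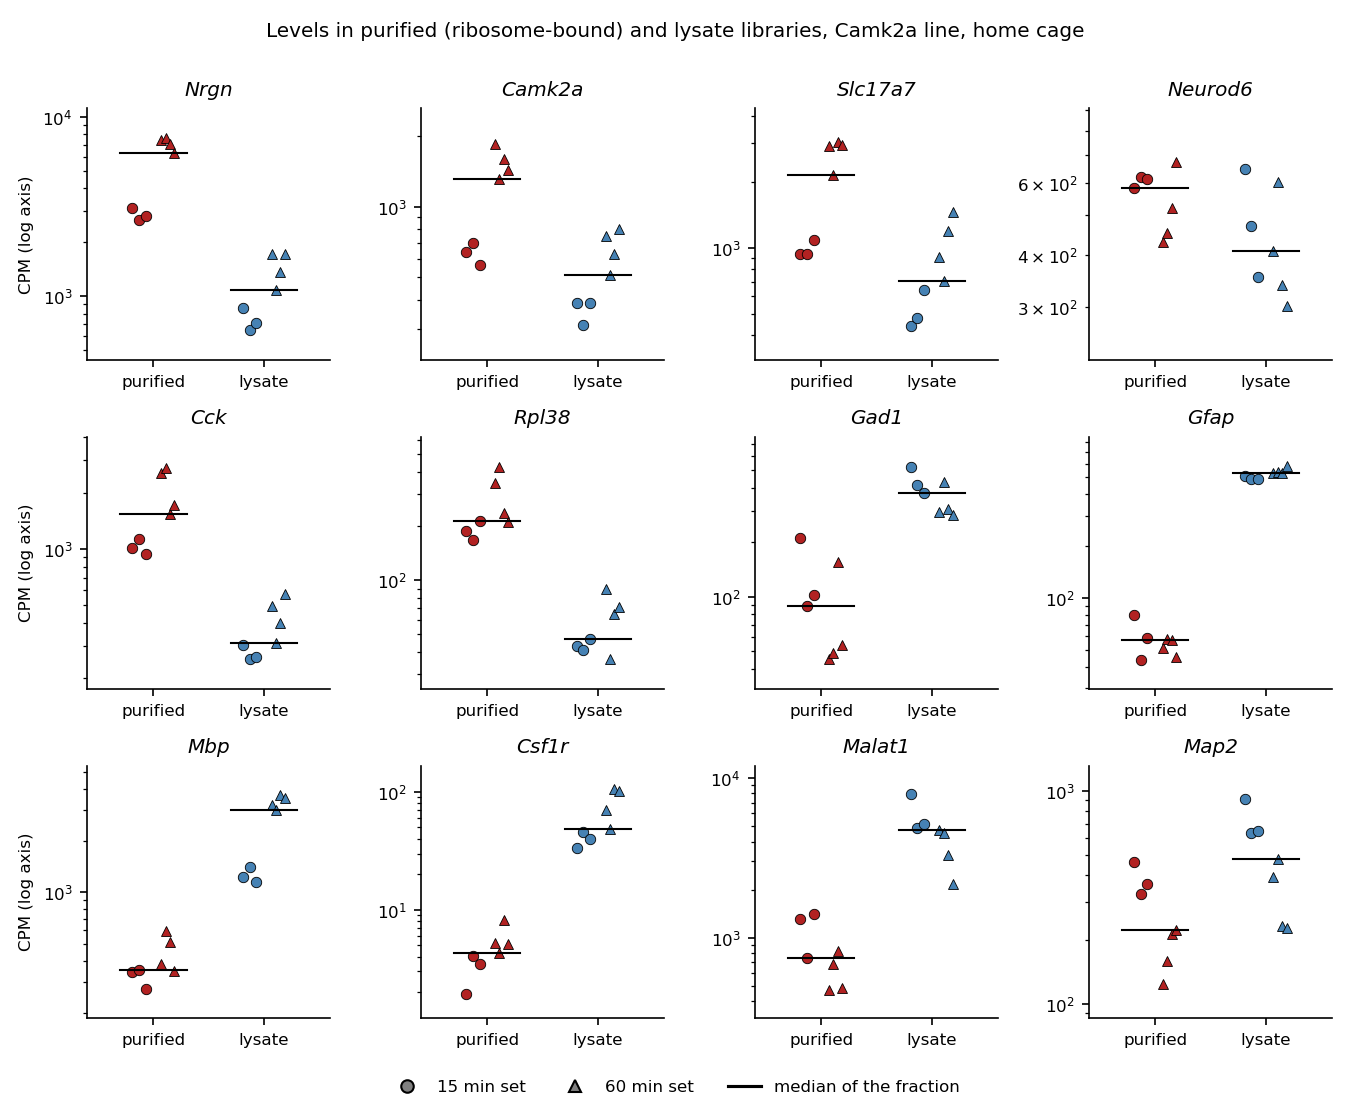
Levels of 12 genes in each of the 14 libraries, as TMM-scaled CPM on a log axis, with purified libraries at the left of each panel and lysates at the right, circles for the 15 min set, triangles for the 60 min set, and a bar at the median of each fraction. Nrgn, Camk2a, Slc17a7 and Cck lie higher in purified libraries, Neurod6 overlaps between the fractions, and Gfap, Mbp, Csf1r, Gad1 and Malat1 lie lower.

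Across all genes, 43.2% passed the test between the fractions, so a call by itself says little about a gene. Of the 15454 genes, 3651 (23.6%) were higher in purified RNA and 3019 (19.5%) were lower, and past 2-fold 1240 (8.02%) were higher and 2126 (13.8%) lower. The median over all genes was -0.06 on the log2 scale, with a median SE of 0.23, and the interquartile range ran from -0.93 to 0.51. In both sets, 2293 genes (14.8%) had every purified library above every lysate and 1614 (10.4%) every purified library below. Scaling by library totals alone, without TMM, moved the median of all genes to -0.49, a shift of -0.43, and turned the split to 1711 higher and 5562 lower. Fold changes here are relative to the bulk of genes, and by library totals a gene lay lower by about that shift on average, so that small positive values turned negative and negative ones grew. For many lists the counts by library totals are given beside the others. For the same reason the calls of 15 genes named here, among them Egr1, Gria1 and Rgs14, did not pass by library totals.

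The 15 higher genes with the smallest p-values, past 2-fold and without overlap in either set, held synaptic and metabolic genes side by side. Among them Thy1, a surface glycoprotein of projection neurons, was at 346 to 613 CPM (median 553) in purified RNA and at 84.0 to 132 CPM (median 105) in lysates (2.24 ± 0.14; adjusted p = 2.52e-09). Iqsec2, an exchange factor for Arf GTPases at excitatory synapses, stood 1.95 ± 0.12 above the lysate, and Nsg2, an endosomal protein of neurons, 1.5 ± 0.10. Slc6a17, a neutral amino acid transporter of synaptic vesicles, was higher by 1.6 ± 0.11, and Ap2s1, the small subunit of the clathrin adaptor AP-2, by 1.77 ± 0.12. Sod1, the cytosolic superoxide dismutase, had 2.02 ± 0.13, Ndufa2, a subunit of respiratory complex I, 2.0 ± 0.13, and Nme1, a nucleoside diphosphate kinase, 1.74 ± 0.12. Wbscr17, a glycosyltransferase that starts O-linked chains, reached 2.50 ± 0.16. Klk8, a secreted serine protease also called neuropsin, was among the 10 largest fold changes of genes above 50 CPM with 2.07 ± 0.18. With GC and length offsets, which correct each library for a trend of counts with GC content and transcript length, Hint2 and Rnasek of the same 15 were at 1.24 and 0.95, against 2.03 and 1.69 without.

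The excitatory neuron list includes Camk2a, Nrgn, Slc17a7 and Neurod6, so it is not independent of the markers above. Of its 22 members 15 were higher and 0 lower (10 higher and 0 lower by library totals), with a median of 0.76, and the summed level of the list was 16032 to 16254 CPM in purified libraries at 15 min and 7408 to 8175 CPM in lysates, and 30133 to 38045 CPM in purified libraries at 60 min and 9753 to 14155 CPM in lysates. Hpca, or hippocalcin, a calcium sensor of pyramidal neurons, was at 3196 to 11598 CPM (median 7356) in purified RNA, against 1097 to 2918 CPM (median 1868) in lysates (1.69 ± 0.13; adjusted p = 2.47e-08). Itpka, which phosphorylates inositol trisphosphate in spines, was higher by 1.75 ± 0.15, and Ddn, or dendrin, a postsynaptic protein, by 1.54 ± 0.13. Neurod2, a transcription factor related to Neurod6, was higher by 1.61 ± 0.16, and Chn1, a Rac GTPase-activating protein, by 0.75 ± 0.09. Of markers shared by all neurons, 10 of 16 were higher and 1 lower (median 0.95). Uchl1, a neuronal deubiquitinase, was higher by 1.56 ± 0.14, Stmn2, a tubulin-binding protein of growing neurites, by 1.09 ± 0.11, and Gap43, a growth-cone protein, by 1.20 ± 0.13. The exception was Map2, the microtubule protein of dendrites, with 462, 329 and 363 CPM in purified libraries at 15 min and 911, 634 and 646 CPM in lysates, and 123, 158, 212 and 222 CPM in purified libraries at 60 min and 392, 479, 232 and 227 CPM in lysates. It was lower in every purified library than in every lysate of its set (-0.91 ± 0.18; adjusted p = 6.61e-04).

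The markers of hippocampal subfields gave different counts, and the differences between these lists were not tested. CA1 markers were mostly higher, 6 of 10 with 0 lower and a median of 0.97 (5 higher and 1 lower by library totals). Doc2b, a calcium sensor of vesicle release, was higher by 1.99 ± 0.17, and Wfs1, an endoplasmic reticulum membrane protein dense in CA1, by 1.48 ± 0.33. Wfs1 overlapped between fractions at 15 min, where purified replicate 3 stood at 48.9 CPM and the other two at 220 and 382 CPM. Fibcd1, a chitin-binding membrane protein, was higher by 1.3 ± 0.27, and Pou3f1, a transcription factor, by 1.41 ± 0.29. Both overlapped at 15 min, where Pou3f1 had 32.9, 61.9 and 40.2 CPM in purified libraries and 24.2, 42.3 and 37.9 CPM in lysates, and in that set alone neither passed (0.66 and 0.37), while both passed in the 60 min set (1.57 and 1.96). Of CA3 markers 3 of 11 were higher and 0 lower (median 0.19, and -0.23 by library totals). These were Bok, a member of the BCL-2 family (1.41 ± 0.16), Dkk3, a secreted glycoprotein (0.87 ± 0.10), and Lypd1, a modulator of nicotinic receptors (1.06 ± 0.15). CA2 markers went both ways, with 3 of 10 higher and 2 lower (median -0.09), but 0 higher and 4 lower by library totals (median -0.52). Rgs14, a regulator of G protein signalling that limits plasticity in CA2, was higher by 0.68 ± 0.14, while Cacng5, an auxiliary subunit of AMPA receptors, was lower (-1.41 ± 0.31). Of dentate granule cell markers 3 of 15 were higher, 1 was lower and the median was -0.08, with 2 higher and 6 lower by library totals (median -0.51). The shares higher of the CA3, CA2 and dentate lists were near the 23.6% of all genes. C1ql2, a secreted protein of mossy fibre synapses, had 444, 370, 509 and 561 CPM in purified libraries at 60 min and 184, 134, 247 and 265 CPM in lysates (1.0 ± 0.17 over both sets), and Trpc6, a cation channel, was lower (-1.35 ± 0.30). Of mossy cell markers 2 of 8 were higher, also near the 23.6%, and 1 was lower (2 higher and 2 lower by library totals). The lower one, Csf2rb2, was at 0 to 1.33 CPM over all libraries.

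Markers of inhibitory neurons were lower in purified RNA without being lost from it. None of 14 markers of GABA neurons was higher and 10 were lower, with a median of -2.28. Gad1, which makes GABA from glutamate, had 213, 89.1 and 102 CPM in purified libraries at 15 min, against 521, 417 and 377 CPM in lysates, and 45.4, 49.3, 156 and 54.1 CPM in purified libraries at 60 min, against 295, 429, 308 and 282 CPM in lysates (-1.93 ± 0.27; adjusted p = 1.83e-05). The purified libraries spread more than the lysates, with replicate 1 at 15 min and replicate 3 at 60 min the highest of their groups. Lhx6, a transcription factor of interneurons from the medial ganglionic eminence, was at 0.0815 to 3.83 CPM (median 2.16) in purified RNA and at 17.4 to 24.8 CPM (median 19.4) in lysates (-3.32 ± 0.53). Of parvalbumin neuron markers 0 of 10 were higher and 4 lower, Pvalb itself at -1.45 ± 0.37 and Tac1, the precursor of substance P, at -2.05 ± 0.37. Pvalb overlapped at 15 min, with 32.6, 6.23 and 9.42 CPM in purified libraries and 28.6, 26.4 and 22.5 CPM in lysates. In that set alone it did not pass. Of somatostatin neuron markers 5 of 9 were lower and 1 was higher. Sst fell to 44.7 to 108 CPM (median 69.6) in purified RNA, against 160 to 311 CPM (median 197) in lysates (-1.56 ± 0.21), Npy, neuropeptide Y, was lower (-1.72 ± 0.16), and so was Crhbp, the binding protein of corticotropin-releasing hormone (-3.21 ± 0.34).

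Interneurons from the caudal ganglionic eminence had 8 of 12 markers lower and 2 higher (median -1.99). Vip, vasoactive intestinal peptide, was lower (-2.91 ± 0.45), as were Cnr1, the cannabinoid receptor of cholecystokinin basket cells (-1.86 ± 0.25), Reln, or reelin (-2.27 ± 0.45), and Htr3a, a serotonin-gated channel (-4.04 ± 0.88). Cck, the cholecystokinin precursor, went the other way and was among the 10 largest fold changes of all genes above 50 CPM (chromosome 9, 121489824 to 121495694, GRCm38). It had 1015, 1129 and 938 CPM in purified libraries at 15 min, against 303, 256 and 260 CPM in lysates, and 2552, 2738, 1543 and 1721 CPM in purified libraries at 60 min, against 490, 309, 397 and 572 CPM in lysates (2.12 ± 0.16; adjusted p = 2.46e-08). The groups did not overlap in either set. Cck is known in pyramidal neurons as well as in basket cells, and Lamp5, a lysosomal membrane protein also made by excitatory neurons, was the other higher member (0.85 ± 0.17).

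Glial RNA was depleted throughout. Every one of the 20 astrocyte, 16 oligodendrocyte and 16 microglia markers tested was lower in purified RNA, and so were 11 of 12 markers of oligodendrocyte precursors. The medians were -2.80, -3.0, -3.01 and -2.87 in that order. Gfap, the intermediate filament of astrocytes (chromosome 11, 102887336 to 102900912, GRCm38), had 79.7, 43.8 and 58.3 CPM in purified libraries at 15 min, against 510, 490 and 487 CPM in lysates, and 51.5, 57.6, 57.3 and 45.4 CPM in purified libraries at 60 min, against 532, 541, 531 and 580 CPM in lysates (-3.22 ± 0.14; adjusted p = 5.89e-11). Slc1a3, a glutamate transporter of astrocytes, was lower (-3.65 ± 0.16), as was Aqp4, the water channel of their end-feet (-4.32 ± 0.25). Mbp, myelin basic protein, was at 275 to 593 CPM (median 355) in purified RNA, against 1144 to 3675 CPM (median 3016) in lysates (-2.48 ± 0.18). Csf1r, the receptor microglia need to survive, had 1.92 to 8.27 CPM (median 4.34) in purified RNA, against 33.2 to 105 CPM (median 48.6) in lysates (-3.75 ± 0.23). P2ry12, the purinergic receptor of resting microglia, had the lowest fold change of all genes with a mean above 50 CPM in lysates, -4.70 ± 0.37, with 0.933 to 5.46 CPM (median 1.54) in purified RNA and 31.3 to 110 CPM (median 42.3) in lysates. Summed over the list, astrocyte markers made 1590 to 1778 CPM in purified libraries at 15 min against 9467 to 9496 CPM in lysates, and 1447 to 1980 CPM in purified libraries at 60 min against 9903 to 12865 CPM in lysates, and no library lacked them. Of the 15 lower genes with the smallest p-values, past 2-fold and without overlap, further ones with a known cell of origin were Clu, or clusterin, and Aldoc, an aldolase of astrocytes (-2.57 ± 0.13 and -2.92 ± 0.16), Cnp and Mag, proteins of myelin (-3.03 ± 0.13 and -3.54 ± 0.19), and Olig1, a transcription factor of the oligodendrocyte lineage (-2.83 ± 0.16).

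**Figure D2:**
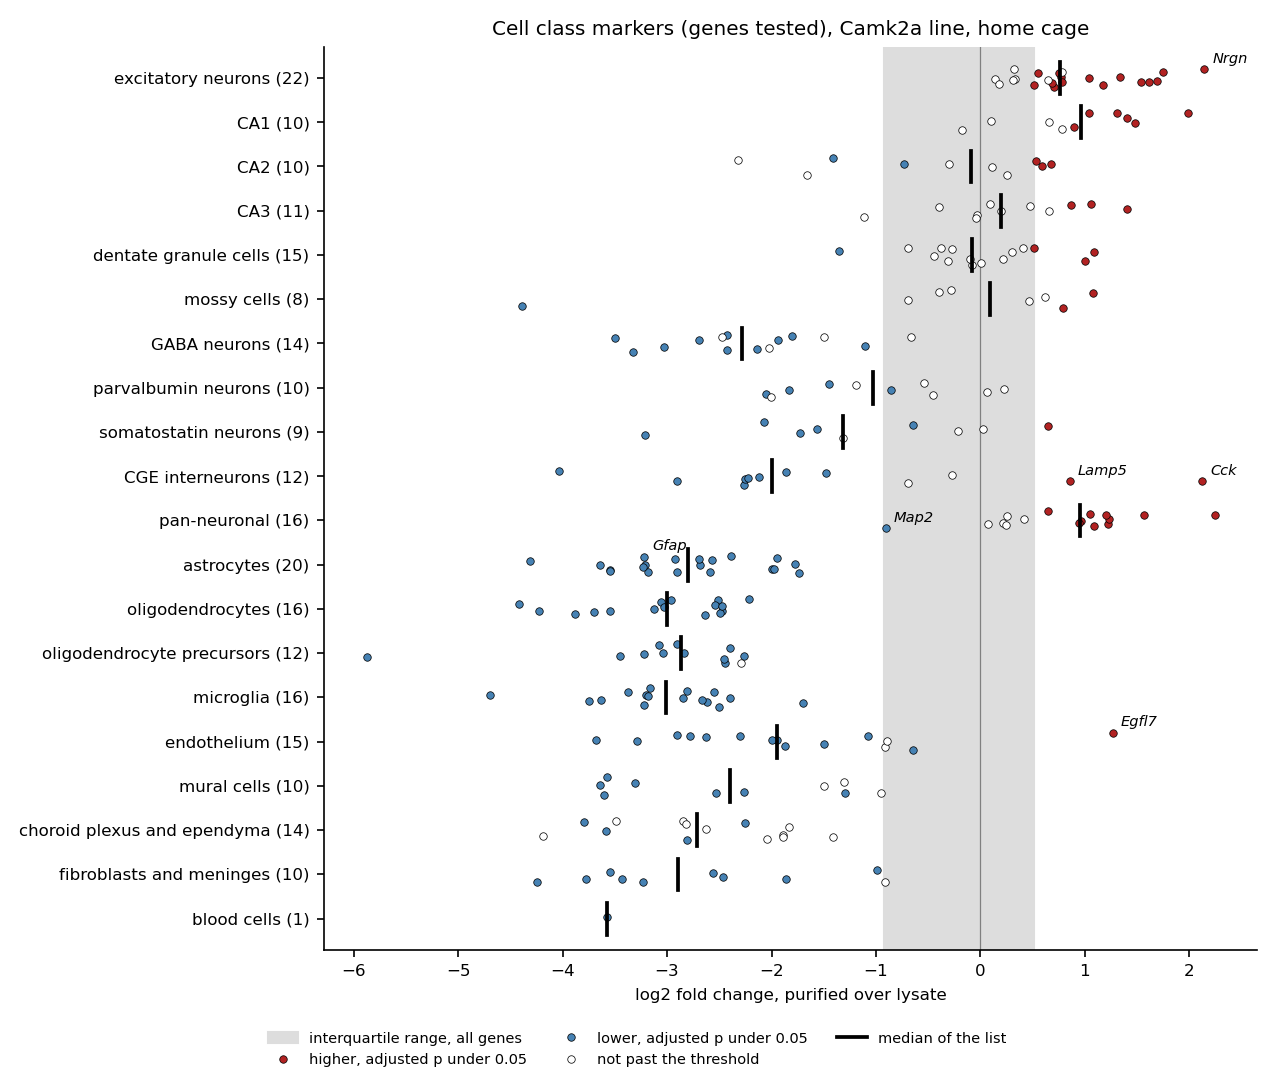
Log2 fold change, purified over lysate, of every tested marker in the cell class lists, with a point for each gene, a bar at the median of the list and shading over the interquartile range of all 15454 genes. The list of neighbouring brain regions is not drawn. Excitatory, CA1 and pan-neuronal markers lie mostly above the shading or in its upper part, the astrocyte, oligodendrocyte and microglia markers all lie below 0, and Cck and Egfl7 stand apart from their lists.

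Vessels and their surroundings were depleted as well. Of endothelial markers 12 of 15 were lower (median -1.94), among them Itm2a, a membrane protein of brain endothelium (-2.0 ± 0.22), and Ly6c1, a surface antigen (-1.88 ± 0.25). The 1 higher member was Egfl7, a secreted endothelial factor whose gene also hosts a microRNA, with 49.1 to 130 CPM (median 102) in purified RNA and 23.3 to 62.6 CPM (median 31.1) in lysates (1.26 ± 0.15; adjusted p = 2.70e-06). Of mural cell markers 7 of 10 were lower and 0 higher, and of fibroblast and meningeal markers 9 of 10 were lower and 0 higher. The erythroid gene Alas2, the first enzyme of haem synthesis, was lower too (-3.57 ± 0.80), and it was the only one of 5 blood genes listed in both tables with enough counts to be tested. Choroid plexus and ependymal markers had a median of -2.72, but 4 of 14 passed, and libraries of a group differed widely. Enpp2, or autotaxin, a secreted enzyme of the choroid plexus, had 58.3, 435 and 59.5 CPM in purified libraries at 15 min, against 240, 3670 and 204 CPM in lysates, and 24.4, 217, 46.5 and 22.8 CPM in purified libraries at 60 min, against 239, 4811, 173 and 125 CPM in lysates (-3.59 ± 1.21). Replicate 2 of each set was the highest of its group in both fractions. Without the 2 lysates numbered 2, an alternative added after seeing them, Enpp2 was at -0.83 ± 0.70 (adjusted p = 0.392), the list's median was -0.10 and 2 of its members were lower. That fit kept the purified libraries numbered 2, so its values for plexus genes lean upward and do not show that the depletion is absent. Among libraries not numbered 2, every purified library lay below every lysate of its set for Enpp2. A fit without number 2 of both fractions was not run. Over all genes 3470 were higher and 2404 lower without the 2 lysates. Markers of neighbouring brain regions passed in 2 of 9 cases, both lower, and without those 2 lysates 1 was higher and 1 lower. Tcf7l2, a thalamic transcription factor that oligodendrocytes also make, was at -3.47 ± 0.59.

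Calcium and calmodulin signalling, through which excitatory synapses turn calcium entry into lasting change, was represented in purified RNA by nearly the whole list. The list holds CaM kinases, calmodulins and calcineurin subunits, and also Nrgn. Of its 21 members 18 were higher and 0 lower, with a median of 0.61 beside -0.06 over all genes. The 18 include the class markers Camk2a and Nrgn, already given above. By library totals 8 were higher and 1 was lower. Calm3 and Calm2, which encode the same calmodulin protein, were higher by 1.3 ± 0.13 and 1.13 ± 0.13, and Camkk2, the kinase that activates CaM kinases I and IV, by 0.99 ± 0.11. Ppp3cb, a catalytic subunit of the phosphatase calcineurin, was higher by 1.18 ± 0.17. Of protein kinase C and A genes and their phosphatases 14 of 23 were higher and 0 lower, but 8 higher and 6 lower by library totals. Prkcb, a calcium-dependent protein kinase C, was at 1690 to 3070 CPM (median 2220) in purified RNA and 671 to 1296 CPM (median 1037) in lysates (1.24 ± 0.11). Ppp1r1a, an inhibitor of protein phosphatase 1, was higher by 1.21 ± 0.15, and Pde4a, which breaks down cyclic AMP, by 1.02 ± 0.15.

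Postsynaptic scaffold genes were higher in 17 of 23 cases and lower in 2, with a median of 0.59 (11 higher and 4 lower by library totals). Agap2, a GTPase-activating protein of the postsynaptic density, was higher by 1.94 ± 0.14, and Kalrn, or kalirin, which shapes dendritic spines, by 1.89 ± 0.17. Dlg4, or PSD-95, the main scaffold of excitatory synapses, was at 16.1 to 74.0 CPM (median 54.9) in purified RNA and at 8.02 to 26.1 CPM (median 18.6) in lysates (1.42 ± 0.16; adjusted p = 1.51e-06). Its relative Dlg1, or SAP97, was lower (-1.06 ± 0.18). Dlg2, or PSD-93, was at -0.29 ± 0.11 with an adjusted p of 0.0483, its fractions overlapped, and it did not pass in either set alone, with the replicate block, with GC and length offsets (-0.08), without any single library other than lysate replicate 1 at 15 min and lysate replicates 3 and 4 at 60 min, or without the 2 lysates numbered 2 (-0.26 ± 0.12; adjusted p = 0.0989). Of 19 mRNAs known to be carried into dendrites 15 were higher and 1, Map2, was lower (median 0.88; 11 higher and 2 lower by library totals). Camk2a, Nrgn and Ddn, given above, are among the higher ones. Ppp1r9b, or spinophilin, was higher by 1.31 ± 0.14 and Iqsec1 by 0.88 ± 0.11.

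The glutamate receptors split by subunit. Over all genes 23.6% were higher and 19.5% lower, and the NMDA, kainate and metabotropic lists were near these shares. Among AMPA receptor subunits and their auxiliary proteins 8 of 15 were higher and 3 lower, and by library totals 1 was higher and 6 lower. Gria1, the subunit of pyramidal synapses that plasticity adds, was at 534 to 852 CPM (median 578) in purified RNA and at 374 to 508 CPM (median 390) in lysates (0.69 ± 0.11; adjusted p = 9.71e-05). Gria4, a subunit of fast-spiking interneurons, was lower (-0.94 ± 0.25), and so was Cacng4, an auxiliary subunit (-2.59 ± 0.70). The auxiliary subunits Cacng2, or stargazin, and Cacng3 were higher by 0.76 ± 0.17 and 0.65 ± 0.14. Cnih2, an export factor of AMPA receptors, was higher by 0.66 ± 0.12, but with GC and length offsets it was at -0.02. Of NMDA receptor subunits 2 of 7 were higher and 1 was lower (1 higher and 1 lower by library totals). Grin2b was higher by 0.96 ± 0.17. The obligatory subunit Grin1 was at 0.63 ± 0.24 with an adjusted p of 0.0441, from 398, 304, 336 and 348 CPM in purified libraries at 60 min against 111, 92.4, 175 and 196 CPM in lysates. At 15 min it had 48.7, 52.6 and 42.5 CPM in purified libraries against 47.8, 52.4 and 68.9 CPM in lysates, a log2 fold change of -0.24. Over both sets Grin1 did not pass with the replicate block (adjusted p = 0.0710), with DESeq2's size factors, without lysate replicate 1 at 15 min or any single library of the 60 min set, or without the 2 lysates numbered 2 (0.51 ± 0.23; adjusted p = 0.0903). Grin2c, which astrocytes and some interneurons make, was lower (-2.98 ± 0.39). Kainate receptors gave 1 higher subunit, Grik5 (0.94 ± 0.24), and 1 lower, Grik1 (-1.26 ± 0.30), with 0 higher and 3 lower by library totals. Grik5 had 298, 296, 273 and 229 CPM in purified libraries at 60 min against 74.8, 58.8, 112 and 125 CPM in lysates, but 48.5, 43.7 and 46.9 CPM in purified libraries at 15 min against 35.2, 42.3 and 54.0 CPM in lysates, where the fractions overlapped. Metabotropic receptors had 2 higher and 1 lower of 7 (0 higher and 1 lower by library totals), the lower one being Grm3, an astrocytic and presynaptic receptor (-1.90 ± 0.28).

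Of 13 GABA-A subunits 1 was higher and 3 were lower (1 higher and 7 lower by library totals). Beside these stand the 23.6% of all genes that were higher and the 19.5% that were lower. Gabrd, the delta subunit of extrasynaptic receptors on granule cells, was the higher one (0.90 ± 0.17). Gabrg1, a subunit of glia and some other brain regions, was one of the lower ones (-2.21 ± 0.31). Of monoamine and acetylcholine receptors 9 of 26 were higher and 3 lower (5 higher and 6 lower by library totals). Chrm1, the main muscarinic receptor of pyramidal neurons, was at 186 to 555 CPM (median 484) in purified RNA and at 121 to 338 CPM (median 198) in lysates (0.81 ± 0.13), and Chrm3 was higher by 0.88 ± 0.19 and Adrb1, the beta-1 adrenergic receptor, by 1.0 ± 0.18. Htr3a, described with the interneurons, was among the lower ones.

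On the presynaptic side 14 of 26 genes of vesicle release were higher and 4 lower (median 0.45), but 6 higher and 7 lower by library totals. The higher ones included Syt7, a slow calcium sensor of release (1.34 ± 0.10), Rab3a, a small GTPase of synaptic vesicles (1.12 ± 0.10), Cplx2, a complexin that clamps the release machinery (1.41 ± 0.15), and Syp, or synaptophysin (1.19 ± 0.14). Pclo, or piccolo, the giant scaffold of the active zone, was lower, with 75.6, 70.0 and 57.7 CPM in purified libraries at 15 min and 303, 175 and 208 CPM in lysates, and 30.3, 41.4, 45.2 and 61.8 CPM in purified libraries at 60 min and 135, 135, 109 and 114 CPM in lysates (-1.59 ± 0.16; adjusted p = 4.87e-07). The fractions did not overlap in either set. Rims1, another large active zone scaffold, was lower by less (-0.84 ± 0.26). Of synaptic adhesion genes 9 of 23 were higher and 2 lower, but 3 higher and 7 lower by library totals. Nlgn2, the neuroligin of inhibitory synapses, was higher by 1.99 ± 0.14, Nrxn2, a neurexin, by 1.40 ± 0.18, and Ptprd, a receptor phosphatase that organises presynaptic sites, was lower (-0.76 ± 0.19).

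Of potassium channel genes 11 of 34 were higher and 2 lower (7 higher and 5 lower by library totals), where 23.6% of all genes were higher and 19.5% lower. Kcnj4, an inward rectifier of pyramidal neurons, was higher by 1.46 ± 0.15. The lower members were Kcnj10 and Kcnj16, the inward rectifiers through which astrocytes buffer potassium (-2.60 ± 0.24 and -3.80 ± 0.57). Of sodium, calcium and HCN channel genes 10 of 26 were higher and 1 was lower (5 higher and 4 lower by library totals). Scn8a, the sodium channel of the axon initial segment of excitatory neurons, was at 491 to 593 CPM (median 530) in purified RNA and at 198 to 281 CPM (median 239) in lysates (1.20 ± 0.10; adjusted p = 7.18e-08), and Scn1a, the sodium channel on which interneurons rely, was the lower one (-0.64 ± 0.20), but did not pass with GC and length offsets (-0.39), in the 60 min set alone or without the 2 lysates numbered 2 (-0.45 ± 0.19, adjusted p = 0.0773).

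Most genes of the ribosome and of oxidative phosphorylation, which every cell uses, were higher in purified RNA. Of cytosolic ribosomal protein genes 78 of 83 were higher and 0 lower, with a median of 1.51, and 75 were higher by library totals. Rpl38, a protein of the large subunit, had 187, 167 and 213 CPM in purified libraries at 15 min, against 43.0, 41.2 and 47.1 CPM in lysates, and 345, 425, 236 and 212 CPM in purified libraries at 60 min, against 89.3, 36.5, 64.6 and 70.9 CPM in lysates (2.17 ± 0.19; adjusted p = 8.83e-08). The fractions did not overlap in either set, and its fold change was among the 10 largest of genes above 50 CPM. Values of single ribosomal protein genes are uncertain, since reads shared with their many processed pseudogenes could be split or dropped in counting. Of mitochondrial ribosomal protein genes 66 of 73 were higher and 0 lower (median 1.07; 53 higher and 3 lower by library totals), for example Mrps12 (1.91 ± 0.15) and Mrpl20 (1.67 ± 0.12). Of nuclear genes for oxidative phosphorylation 72 of 84 were higher and 2 lower (median 1.25; 62 higher and 5 lower by library totals). Ndufs6, of complex I, was higher by 1.96 ± 0.14, Uqcrq, of complex III, by 1.93 ± 0.14, Cox5b, of complex IV, by 1.8 ± 0.13, and Atp5h, of the ATP synthase, by 1.89 ± 0.14. The lower ones were Cox6a2, an isoform of muscle and fast-spiking interneurons (-1.83 ± 0.37), and Cox4i2, an isoform of lung and vascular cells (-4.10 ± 1.18), and both stayed under 12 CPM in every library.

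Proteasome genes were higher in 28 of 43 cases and lower in 3 (median 0.62; 20 higher and 9 lower by library totals). Core particle subunits such as Psmb4 (1.68 ± 0.13) and Psmb6 (1.41 ± 0.13) were higher, and Psmb8, a subunit of the immunoproteasome, was lower (-1.24 ± 0.39). Of translation factors 32 of 63 were higher and 2 lower (median 0.35), but 16 higher and 16 lower by library totals (median -0.08). Eif3f, a subunit of the initiation factor eIF3, was higher by 1.42 ± 0.11, Eef1b2, which recharges the elongation factor eEF1A, by 1.46 ± 0.12. Splicing factors had 28 of 64 higher and 4 lower, but 18 higher and 21 lower by library totals. The Sm proteins Snrpb and Snrpd2 were higher by 1.6 ± 0.12 and 1.93 ± 0.18. Heat shock chaperones had 8 of 16 higher and 1 lower (3 higher and 3 lower by library totals), with Hsp90aa1 at 1.04 ± 0.13 and Hspb1, the small heat shock protein of glia and vessels, at -2.31 ± 0.69. Of chaperones of the endoplasmic reticulum 6 of 15 were higher and 1 was lower, but 2 higher and 8 lower by library totals.

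Other groups were lower or mixed. Cholesterol synthesis, which astrocytes carry out for neurons in the adult brain, had 8 of 20 enzymes lower and 4 higher (3 higher and 11 lower by library totals). Sc5d, Cyp51 and Idi1 were lower (-1.13 ± 0.18, -0.77 ± 0.15 and -2.05 ± 0.40), whereas Ebp, which acts late in the pathway, and Fdps, which acts before squalene, were higher (1.10 ± 0.12 and 0.91 ± 0.16). Clustered protocadherins, which give each neuron a surface identity, had 11 of 55 lower and 1 higher (median -0.76; 0 higher and 20 lower by library totals). Pcdhgc3 was lower by the smallest p (-3.61 ± 0.41), and the isoforms of its gamma cluster share 3' exons, so their counts may be split between them. Genes named as zinc finger proteins by the prefix Zfp had 39 of 315 higher and 35 lower, and 16 higher and 116 lower by library totals. Over all genes, 23.6% were higher and 19.5% lower.

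**Figure D3:**
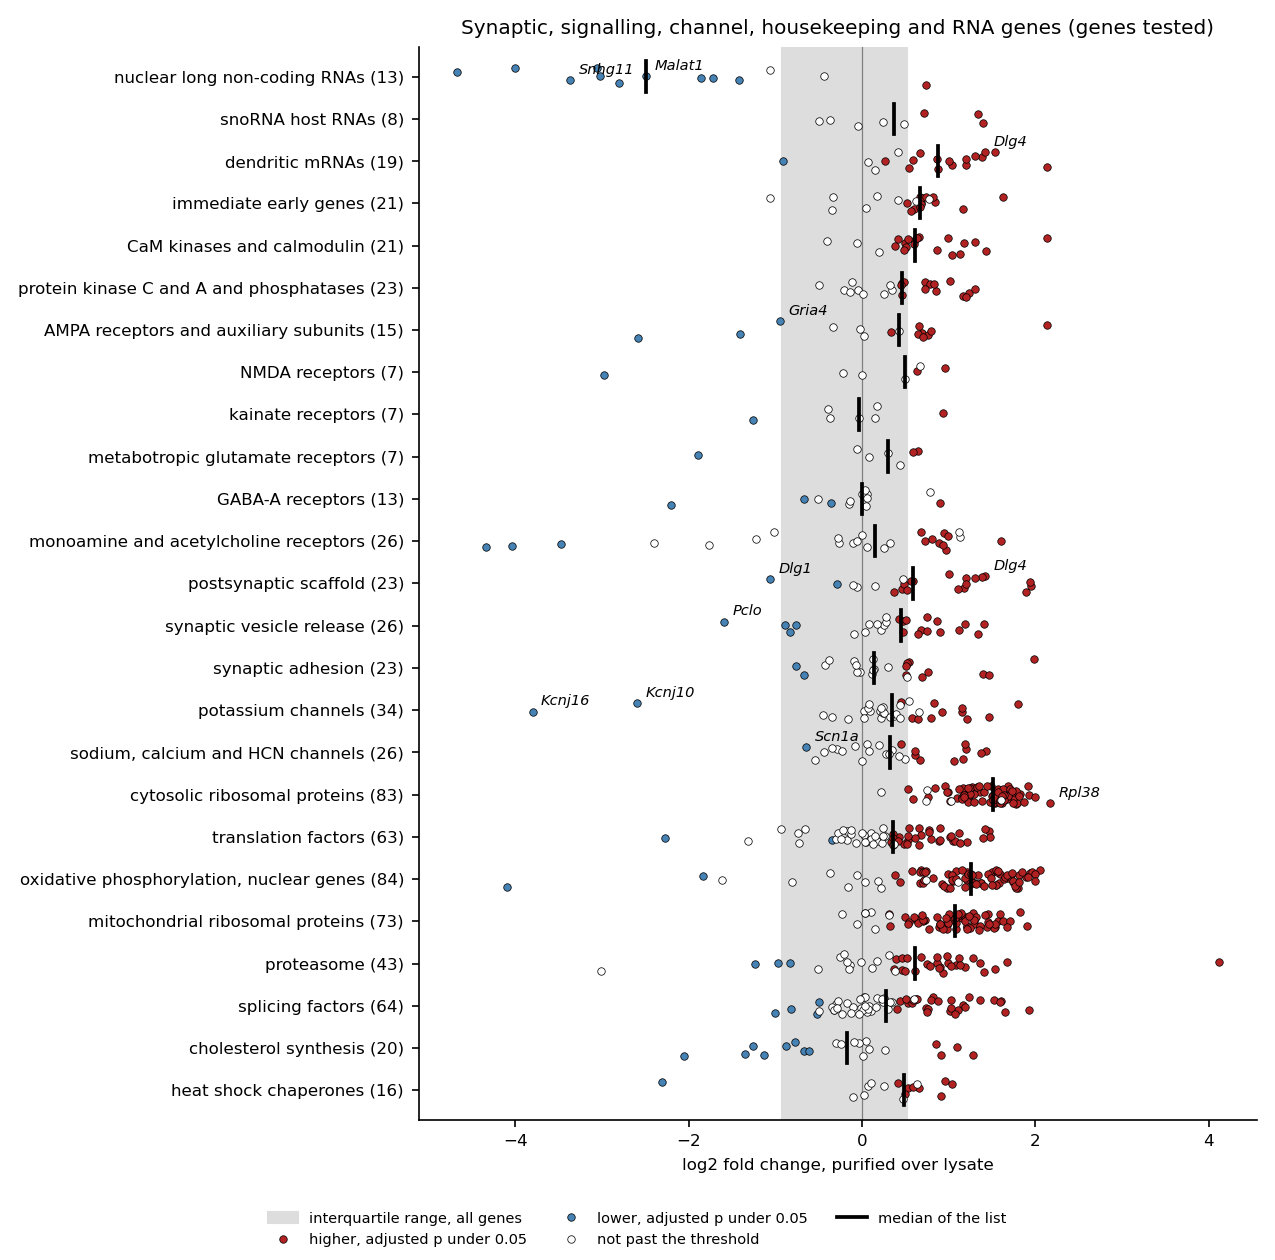
Log2 fold change, purified over lysate, of every tested member of the lists of synaptic, signalling, channel, housekeeping and RNA genes, with a point for each gene, a bar at the list's median and shading over the interquartile range of all 15454 genes. The lists of zinc finger proteins, endoplasmic reticulum chaperones and clustered protocadherins are not drawn. Cytosolic and mitochondrial ribosomal proteins and oxidative phosphorylation genes sit above the shading as groups, nuclear long non-coding RNAs sit below it, and receptor and channel lists straddle it.

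Long non-coding RNAs known to stay in nuclei were mostly depleted. Of 13 such RNAs 10 were lower and 1 was higher, with a median of -2.49. Malat1, an abundant RNA of nuclear speckles (chromosome 19, 5795690 to 5802672, GRCm38), had 1301, 747 and 1413 CPM in purified libraries at 15 min, against 7965, 4844 and 5181 CPM in lysates, and 470, 684, 826 and 482 CPM in purified libraries at 60 min, against 4725, 4524, 3297 and 2164 CPM in lysates (-2.49 ± 0.21; adjusted p = 6.43e-08). Meg3 and Snhg11, which are themselves transcribed in neurons, fell by 2.80 ± 0.16 and 3.37 ± 0.15 on the log2 scale. Snhg11 had 46.6, 47.1 and 32.2 CPM in purified libraries at 15 min and 516, 543 and 575 CPM in lysates, and 21.8, 21.0, 22.8 and 19 CPM in purified libraries at 60 min and 157, 214, 197 and 166 CPM in lysates. Neat1, which builds paraspeckles, and Miat were lower too (-4.0 ± 0.54 and -3.05 ± 0.32). The higher member was Peg13, an imprinted RNA transcribed from within Trappc9 (0.74 ± 0.13), whose reads cannot be told from those of its host in libraries that do not mark the strand. Host RNAs of small nucleolar RNAs, which are exported and carry short open reading frames, had 3 of 8 higher and 0 lower (2 higher and 2 lower by library totals), namely Snhg8 (1.39 ± 0.21), Snhg12 (1.33 ± 0.20) and Gas5 (0.71 ± 0.16). Over all genes annotated as long non-coding, 7.97% of 577 were higher and 14.7% lower, beside 24.5% and 19.8% of 14618 protein-coding genes.

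Counts under a ribosomal RNA gene were higher in purified RNA, though the labels name polyA RNA. Rn45s, the gene model of the 45S ribosomal RNA precursor, had 1841, 2146 and 1763 CPM in purified libraries at 15 min, against 408, 454 and 513 CPM in lysates, and 3398, 3788, 2554 and 2361 CPM in purified libraries at 60 min, against 529, 355, 507 and 696 CPM in lysates (2.33 ± 0.16; adjusted p = 8.01e-09). Lars2, annotated as the mitochondrial leucyl-tRNA synthetase (chromosome 9, 123366927 to 123462666, GRCm38), had the largest fold change of all genes with a mean above 50 CPM in purified RNA. Its levels were 4848, 4568 and 4300 CPM in purified libraries at 15 min and 598, 903 and 944 CPM in lysates, and 3993, 4330, 3309 and 2786 CPM in purified libraries at 60 min and 676, 605, 603 and 641 CPM in lysates (2.50 ± 0.13; adjusted p = 5.28e-10). Neither gene overlapped between fractions in either set. Whether reads of ribosomal RNA are counted under the Lars2 gene was not tested.

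Immediate early genes, which neuronal activity switches on, were higher in purified RNA of these home cage mice in 13 of 21 cases and lower in 0 (median 0.67). By library totals 3 were higher and 2 lower, and with GC and length offsets 10 were higher. Egr1, a zinc finger transcription factor, was at 195 to 345 CPM (median 286) in purified RNA and at 138 to 244 CPM (median 211) in lysates (0.52 ± 0.10; adjusted p = 2.82e-04). Junb was higher by 0.82 ± 0.15, and the orphan receptors Nr4a2 and Nr4a3 by 0.70 ± 0.14 and 1.16 ± 0.21. The level of Nr4a3 differed between the sets in both fractions, with 2.28, 2.86 and 4.0 CPM in purified libraries at 15 min against 0.695, 1.07 and 2.23 CPM in lysates, and 65.9, 76.1, 69.3 and 74.7 CPM in purified libraries at 60 min against 39.0, 34.9, 23.1 and 29.7 CPM in lysates, and in the 15 min set alone it did not pass (1.18). Fosb was higher by 1.63 ± 0.35 at a low level, 2.49 to 7.50 CPM (median 5.24) in purified RNA and 1.12 to 2.13 CPM (median 1.71) in lysates. Jund was higher by 0.68 ± 0.14, and at -0.10 with GC and length offsets. Junb and Jund also did not pass in the 15 min set alone, nor did Egr1 and Fosb in the 60 min set alone.

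The fold change varied with the length and the GC content of the transcripts. Protein-coding genes were put in 10 equal bins by the length of their coding sequence. In the shortest bin (93.0 to 549 bases), 48.8% were higher in purified RNA and 13.6% lower, with a median of 0.55. In the longest bin 14.7% were higher and 23.4% lower, with a median of -0.26. The share of higher genes went down through the bins as far as bin 6 and then stayed between 14.7% and 16.1%. Ribosomal protein, mitochondrial ribosomal protein, oxidative phosphorylation and proteasome genes are short, but without these 4 lists 44.2% of the 1318 other genes of the shortest bin were higher (median 0.42). Across 14616 protein-coding genes Spearman's rho between coding length and the log2 fold change was -0.200, and in the 15 min and 60 min sets it was -0.242 and -0.198. For the length of the whole transcript, which contains the coding sequence, rho was -0.191, with 51.9% of genes higher in the shortest bin and 18.4% in the longest, and for the length of the 3' untranslated region rho was -0.103. For GC content of the transcript rho was 0.252, 0.160 in the 15 min set and 0.324 in the 60 min set. In the bin lowest in GC 6.36% were higher and 30.9% lower, and in the bin highest in GC 36.9% were higher and 11.1% lower. These are descriptions across genes that share the same 14 libraries, and genes are not independent replicates. The part of library preparation in them was not tested. With GC and length offsets 4016 genes were higher and 2760 lower, and the medians of the ribosomal protein and oxidative phosphorylation lists were 1.03 and 0.81, against 1.51 and 1.25 without.

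**Figure D4:**
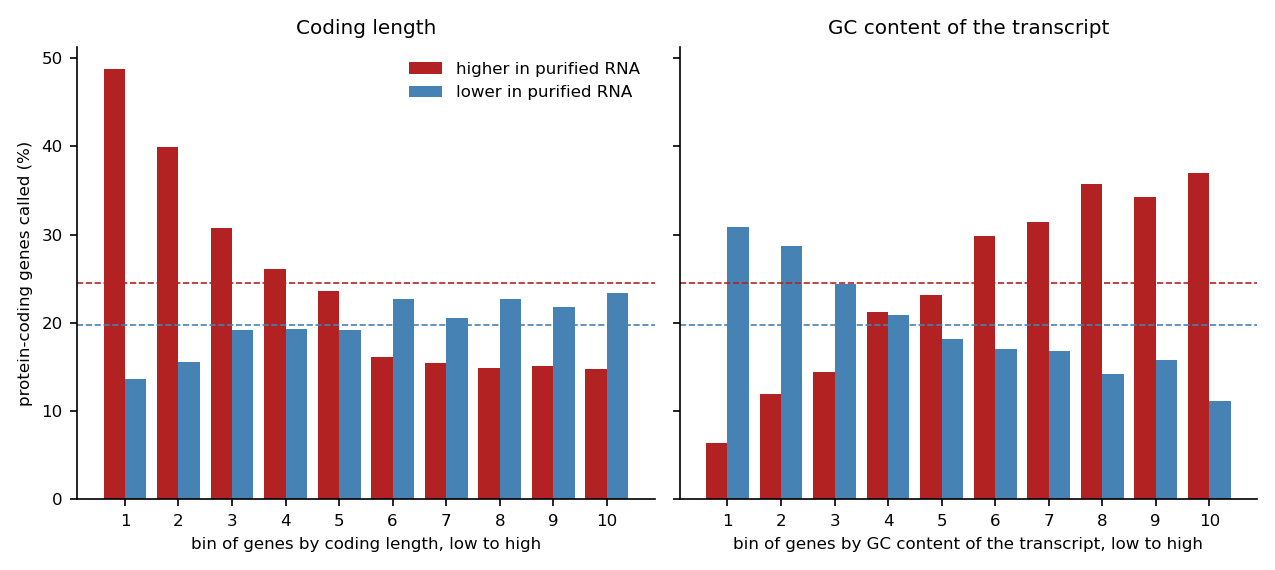
Shares of protein-coding genes higher and lower in purified RNA, in percent, for 10 equal bins of genes by coding length (left) and by GC content of the transcript (right), with horizontal lines at the shares over all protein-coding genes. The share of higher genes is 48.8% in the shortest and 14.7% in the longest bin, and 6.36% in the lowest and 36.9% in the highest bin of GC content.

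Both sets were home cage mice, so the enrichment of each set over its own lysate could be set side by side. Tested alone, the 15 min set gave 2394 higher (16.7%) and 1878 lower (13.1%) of 14362 genes and the 60 min set 2000 (14.0%) and 2170 (15.2%) of 14292. Counts of the separate sets do not compare them. A test of the difference itself, enrichment at 60 min minus enrichment at 15 min, called 7 genes higher (0.0453%) and 1 lower (0.00647%). On simulated data it called 2% of genes whose enrichment was raised 1.5-fold, 6% at 2-fold and 63.3% at 4-fold. A low count of calls therefore does not show that the sets were alike. Pcsk1n, or proSAAS, a precursor of secreted peptides, had 1721, 2141, 1536 and 1779 CPM in purified libraries at 60 min, against 457, 338, 529 and 683 CPM in lysates, but 182, 163 and 179 CPM in purified libraries at 15 min, against 151, 167 and 219 CPM in lysates. The difference of its 2 log2 fold changes was 1.87 ± 0.29 (SE; adjusted p = 0.0257). Dlgap3, a postsynaptic scaffold protein, had 236, 227, 227 and 216 CPM in purified libraries at 60 min, against 65.3, 54.1, 74.2 and 91.9 CPM in lysates, and 37.5, 37.7 and 41.1 CPM in purified libraries at 15 min, against 39.3, 28.2 and 41.6 CPM in lysates (1.57 ± 0.26). Clstn1, or calsyntenin-1, which links cargo to kinesin, and Nptxr, the neuronal pentraxin receptor, differed in the same direction (1.86 ± 0.30 and 3.40 ± 0.55). At 15 min every purified library lay below every lysate for both, with 79.5, 102 and 85.2 CPM of Clstn1 in purified libraries and 133, 161 and 193 CPM in lysates, and at 60 min Clstn1 had 1459, 1260, 1224 and 1444 CPM in purified libraries and 523, 474, 790 and 918 CPM in lysates. Tpgs1, a subunit of the tubulin polyglutamylase, and Tfeb, a transcription factor of lysosomal genes, followed (1.88 ± 0.30 and 3.98 ± 0.56). Adam1a, a membrane protein studied in sperm, was at 1.59, 1.71, 0.866 and 0.592 CPM in purified libraries at 60 min and 0.690, 2.03, 1.40 and 0.225 CPM in lysates, and had no count in the purified libraries at 15 min, against 1.77, 4.24 and 5.65 CPM in lysates. The transcripts of the 7 genes held 49.9% to 65.3% GC, beside a median of 50.7% over all protein-coding genes tested. The 1 lower gene, Nme7, had 7.93, 7.06, 7.64 and 9.95 CPM in purified libraries at 60 min and 15.0, 13.4, 11.2 and 11.4 CPM in lysates, but 3297, 2773 and 2783 CPM in purified libraries at 15 min and 1497, 1137 and 1025 CPM in lysates. The tables of the 2 sets listed 23366 and 24391 genes, and the part of this in the level of Nme7 was not tested. Leaving out 1 library in turn gave 1 to 203 genes in all, the most without lysate replicate 4 of the 60 min set and 1 without lysate replicate 1 of either set or without purified replicate 3 of the 15 min set, and 13 of the 14 libraries moved the count by over 1.5 times. DESeq2 called 318. Nme7 passed under each of the 20 alternatives run.

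To see which of these differences set excitatory neurons apart from another purified class, the same contrast of the Pvalb line, ribosome-bound RNA of parvalbumin interneurons over its lysate in the home cage (genotype Pvalb.Cre/TRAPfl, dorsal hippocampus, 10 purified libraries and 9 lysates), was subtracted in 1 model. Of 16667 genes tested, 3925 (23.5%) had a higher enrichment in the Camk2a line and 3843 (23.1%) a lower one. Within the Pvalb line's own contrast, whose libraries are separate, 1969 of the 3651 genes higher in the Camk2a line lay above 0 (median 0.10) and 1965 of the 3019 lower genes lay below 0 (median -0.41), where the median over all genes of that line was -0.14. Nrgn, Hpca and Slc17a7 had differences of 4.09 ± 0.19, 3.81 ± 0.22 and 3.45 ± 0.20, and Syt5, a synaptotagmin, and Nell2, a secreted glycoprotein, had 3.14 ± 0.17 and 2.80 ± 0.15. At the other end stood Pvalb (-7.12 ± 0.39), Crhbp (-7.04 ± 0.35), Gad1 (-5.25 ± 0.29) and Kcnip1, a potassium channel interacting protein (-3.76 ± 0.20). Each line has its own count tables, so a difference between lines and one between tables cannot be told apart. This difference followed GC content more closely than the contrast within the Camk2a line did, with rho of 0.461 against 0.252, and enrichment in the Pvalb line itself went the other way with GC content (-0.385). With GC and length offsets 3534 and 2964 genes were called, Nrgn at 3.32 and Pvalb at -6.95.

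By group, excitatory markers were higher than in the Pvalb line in 19 of 22 cases (median difference 2.39), among them Neurod6 (1.8 ± 0.23), which had not passed against its own lysate. All 14 GABA neuron markers and all 10 parvalbumin markers tested had a lower enrichment than in the Pvalb line (-4.75 and -3.99). CA3 markers were higher in 8 of 11 cases and lower in 1, and dentate markers higher in 7 of 15 and lower in 2. Against the lysate 3 of each list had been higher. Medians over the lysate were 0.19 (CA3) and -0.08 (dentate) in the Camk2a line, and -1.60 and -0.97 in the Pvalb line. For the excitatory list they were 0.76 and -1.46. Cytosolic ribosomal protein genes were higher than in the Pvalb line in 62 of 83 cases, with medians over the lysate of 1.51 in the Camk2a line and 0.38 in the Pvalb line. With GC and length offsets 67 of them were higher and 1 lower, and 21 excitatory markers were higher. Oxidative phosphorylation genes divided, 30 higher and 29 lower of 84, with medians over the lysate of 1.25 and 1.10 in the Camk2a and Pvalb lines. CaM kinase and calmodulin genes were higher in 13 and lower in 3 of 21, and immediate early genes higher in 12 and lower in 1 of 21. Astrocyte markers were lower in 17 of 20 cases, with medians over the lysate of -2.80 in the Camk2a line and -1.15 in the Pvalb line, and nuclear long non-coding RNAs in 9 of 13 (-2.49 and -0.55).

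**Figure D5:**
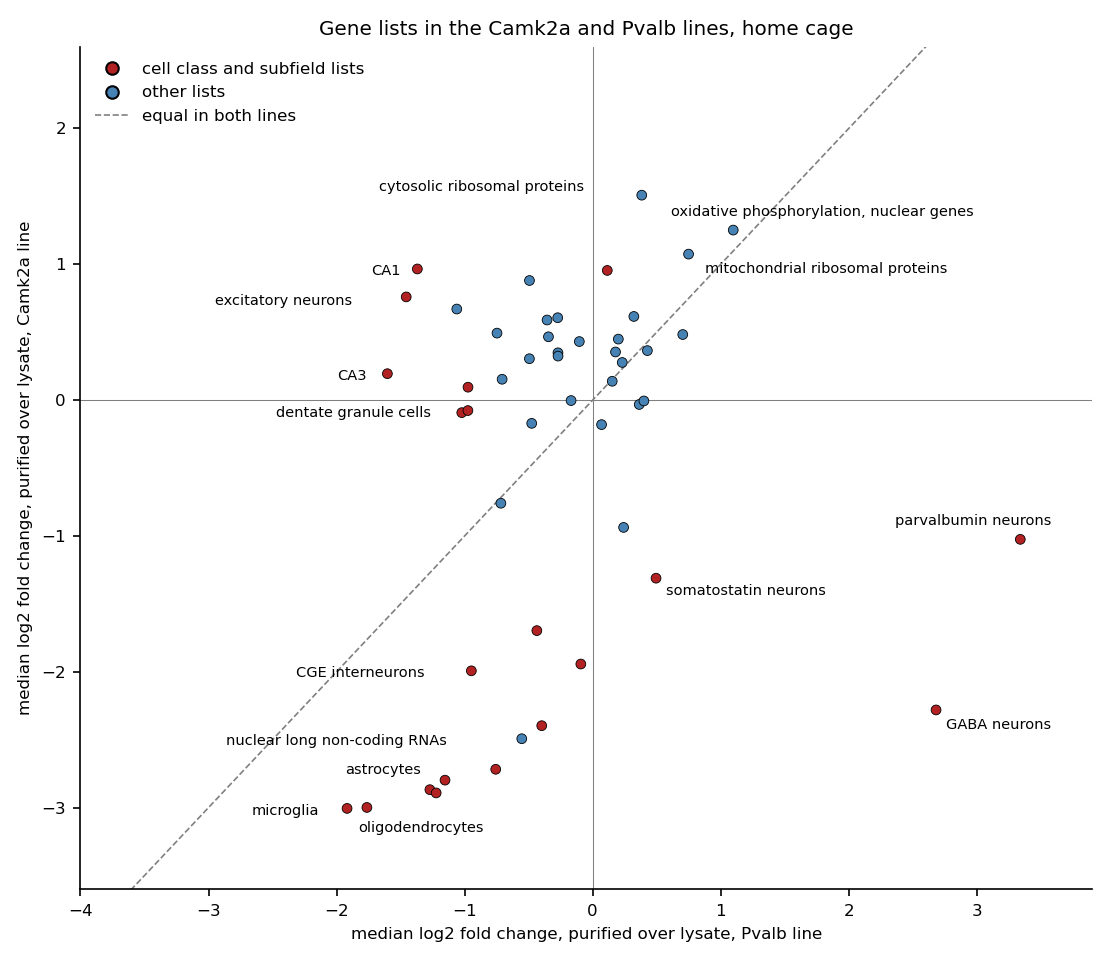
Median log2 fold change, purified over lysate, of each gene list in the Camk2a line (vertical axis) against the Pvalb line (horizontal axis), home cage, with a dashed line where the 2 are equal. Excitatory, CA1 and CA3 lists lie far above the line, GABA and parvalbumin lists far below it, and oxidative phosphorylation and mitochondrial ribosomal protein lists near it at the upper right.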

How the data were processed

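PolyA RNA of purified ribosomes (TRAP) and of whole lysate was sequenced from Nextera XT libraries. These do not mark strand, and overlapping or antisense genes share reads. The authors deposited raw counts per gene in 1 table for each line and set. STAR 2.7.7a, featureCounts, DESeq2 and the build GRCm38 are named in the submitters' processing notes without their roles. The gene models counted were not given in the sources used here. The Camk2a tables listed 23366 genes (15 min set) and 24391 genes (60 min set), and the 22654 listed in both were joined by symbol. Levels are CPM from these deposited counts, divided by the library size after TMM scaling.

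The 14 libraries' counts went into edgeR's robust quasi-likelihood fit (edgeR 4.0.16, R 4.3.3, genes kept by filterByExpr, TMM factors), with fraction and set as terms, adjusted p under 0.05 as the threshold, and 2-fold as a second rule. The difference between sets was an interaction term, and the difference from the Pvalb line was tested in 1 model over 33 home cage libraries. DESeq2 1.42.0 was an alternative. GC content, coding length and coordinates are from GENCODE M21 on GRCm38. On simulated data with known changes, the main test called 22% of genes raised 1.5-fold, 46% raised 2-fold and 75.5% raised 4-fold. Of genes lowered 4-fold it called 53.2%. The simulation changed 50 of 15008 genes by each of these amounts and left the rest level, whereas 43.2% of genes passed in the data. Adjusted p-values depend on the share of genes that differ, so these rates need not hold for the main test on the data. Total counts of 27783560 to 106721928 per library set the counting precision, and p-values measure the spread between libraries, called biological replicates in the series' design text. No 2 libraries of a group agreed within sampling noise.

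Genes named are the 4 markers, the genes with the smallest p-values or largest fold changes past 2-fold, up to 6 called members per list and up to 3 that went against their list, and the called genes with the smallest p-values of the other contrasts. The members and the lists were chosen with earlier results of these data known. Some names, such as members of a list that moved against it, follow the called direction by construction. Some genes are not reported here.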

Additional observations from a re-analysis of the deposited data

Results flagged for a closer look

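Single libraries that stood far from the rest of their group of 4 at 60 min were looked for in the genes whose values are given library by library. Enpp2, of the choroid plexus, was at 217 CPM in purified replicate 2 and at 4811 CPM in lysate replicate 2, each far above the other three libraries of its group. Gad1, which makes GABA, was at 156 CPM in purified replicate 3, where the other three had 45.4, 49.3 and 54.1 CPM. These are 3 of 40 groups tested. Chance flags about 1 in 20 independent groups, but these groups share the same 8 libraries and Enpp2 was flagged in both fractions. The 1 in 20 is therefore no measure of chance here.

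The enrichment over the lysate differed between the 60 min and 15 min sets by edgeR's interaction test for 8 genes. The adjusted p was 0.00789 for Nme7, 0.0154 for Tfeb and 0.0282 for Adam1a. It was 0.0257 for Clstn1, 0.0257 for Dlgap3, 0.0257 for Nptxr, 0.0257 for Pcsk1n and 0.0257 for Tpgs1. The sets differ in count table, listed genes and library, and their parts in these differences cannot be told apart.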

How the results depend on the processing

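Counts of genes higher and lower in purified RNA stayed within 1.5 times of 3651 and 3019 with DESeq2, DESeq2's size factors, either filter on low counts, all libraries of the Camk2a tables, GC and length offsets and the 2 lysates numbered 2 left out. Leaving out single libraries gave 2843 to 3725 higher and 2709 to 3356 lower, and past 2-fold 922 to 1320 and 1877 to 2364. Library totals gave 1711 higher (23.5% of the genes called, against 54.7% with TMM) and 5562 lower, and 357 and 3404 past 2-fold. The 15 min set alone gave 2394 higher and 1878 lower, 1360 of the lower ones past 2-fold, and the 60 min set alone 2000 higher. Past 2-fold GC and length offsets gave 752 higher, and a test against 2-fold itself (glmTreat) 416 higher and 991 lower, fewer since it asks for more than the point estimate. Genes whose enrichment differed between the sets, 8 as reported, were 318 with DESeq2, 20 and 23 with the other filters, 2 by library totals and 1 to 203 with single libraries left out. Against the Pvalb line, leaving out single libraries gave 3724 to 4073 higher and 3520 to 3972 lower. Fold changes of named genes that reversed were Cnih2 (-0.024) and Jund (-0.10) with GC and length offsets, Grin1 (-0.24) and Pcsk1n (-0.039) in the 15 min set alone, and Neurod6 (-0.10) by library totals, and the cause was not tested. By library totals the calls of Cacng2, Cacng3, Chrm3, Cnih2, Egr1, Gas5, Gria1, Grik5, Grin1, Jund, Lamp5, Nr4a2, Pcsk1n, Peg13 and Rgs14 did not pass. Of 154 genes named for the contrast with the lysate, 21 kept their direction without passing in the 15 min set alone and 11 in the 60 min set alone. Whether a purified and a lysate library of equal number came from the same animal is not stated. Across genes, deviations from the group means correlated at 0.0619 to 0.129 (15 min) and 0.0250 to 0.142 (60 min) for equal numbers. For unequal numbers the values were -0.0875 to 0.00145 and -0.144 to 0.102, and 12 of 14 libraries correlated best with their own number. A replicate block gave 3571 higher and 3084 lower genes, 2 genes differing between sets, and 3506 higher and 3101 lower against the Pvalb line.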
